A study of Homo sapiens with 12 samples.

Results

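Expression of 43 genes of homologous recombination, Fanconi crosslink repair and the linked checkpoint was described in PANC-1, an established cell line from a human pancreatic ductal tumour, after knockdown of SIK3 and after TNF. The genes were taken by symbol: 6 of the MRE11-RAD50-NBN complex and of end resection, 5 around BRCA1 and BRCA2, 9 recombinase paralogues and partners, 7 that dissolve or cut joined DNA molecules, 11 of the Fanconi core complex and its FANCD2-FANCI substrate, 4 checkpoint kinases, and POLQ. All 43 had an identifier among the 60669 of the count tables, and all 43 were among the 16695 genes with enough reads to be tested. Cells were reverse transfected for 72 h with an siRNA that targets SIK3 (AS1 in the titles, which the design text gives as a single siRNA, s1) or with a control siRNA called Scr1. SIK3 is one of the salt-inducible kinases. The cells then received TNF-α, an inflammatory cytokine, at 100 ng/mL for 30 min or 4 h, or none. The 12 libraries form 6 conditions of 2 replicates: SIK3 siRNA without TNF, with TNF for 30 min and with TNF for 4 h, and Scr1 siRNA without TNF, with TNF for 30 min and with TNF for 4 h. The design text calls the replicates biological without saying what separated them, so p-values measure the spread between these libraries of 1 cell line and 1 SIK3 siRNA.

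Homologous recombination repairs a broken chromosome by copying the sister chromatid, so it works in cells that have replicated their DNA. Broken ends are first resected to single strands, BRCA1 and BRCA2 help to load a recombinase on them, and helicases and nucleases later separate the joined molecules. The Fanconi proteins detect crosslinks between DNA strands, attach ubiquitin to FANCD2 and FANCI, and pass the opened crosslink on to recombination. Many of these genes are known to be transcribed in late G1 and S phase under E2F control, and inherited mutations in BRCA2, PALB2 and ATM raise the risk of pancreatic cancer.

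SIK3 itself served as a check of the labels, because titles and file names give different conditions to 8 of the 12 libraries. By file name, SIK3 mRNA lay at 16.3 and 22.4 CPM (replicates 1 and 2; CPM, read counts scaled to a common library size) with SIK3 siRNA without TNF, at 17.3 and 24.0 CPM with TNF for 30 min and at 18.3 and 22.8 CPM with TNF for 4 h. With Scr1 siRNA it lay at 34.3 and 60.4 CPM without TNF, at 42.5 and 68.7 CPM with TNF for 30 min and at 34.4 and 65.2 CPM with TNF for 4 h. All 6 libraries named SIK3 were thus below all 6 named Scr1 (mean difference -1.29 on the log2 scale, 2-sided exact permutation p = 0.00216, the smallest that 924 splits allow). Grouped by the siRNA in the titles, the libraries overlapped from 16.3 to 68.7 CPM with SIK3 siRNA and from 17.3 to 65.2 CPM with control siRNA (mean log2 difference -0.35, exact permutation p = 0.431). Both permutations took the 12 libraries as exchangeable, without regard to replicate number or TNF time. SIK3 mRNA bears on the siRNA alone, and the TNF times in the file names were not tested by it. Conditions below are those of the file names, in which the word CLM was read as no TNF by elimination. The comparisons that the titles give follow near the end.

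Each library held between 13535825 and 22699756 reads counted in genes, and 3 counts, the limit that a count of 0 allows, equal 0.132 to 0.222 CPM. That limit covers counting error only. Reads that matched several places made up 4.94 to 17.6% of reads in the 6 libraries of replicate 1 and 10.2 to 45.3% in those of replicate 2. Reads in no annotated gene made up 16.5 and 17.1% in the 2 libraries of SIK3 siRNA with TNF for 4 h, against 8.35 to 10.5% in the other 10. The summed level of 6 epithelial and PANC-1 markers (keratins, EPCAM and VIM) was 6629 to 8562 CPM in SIK3 siRNA libraries and 9144 to 10261 CPM in Scr1 siRNA libraries. All 5 leukocyte markers stayed under 1 CPM in every library, with summed levels of 0.0836 to 0.597 CPM with SIK3 siRNA and of 0 to 0.375 CPM with Scr1 siRNA. The 7 fibroblast and endothelial markers summed to 8.32 to 17.1 CPM with SIK3 siRNA and to 6.86 to 10.6 CPM with Scr1 siRNA. Of the 5 acinar and endocrine markers, PRSS1, CPA1, AMY2A and INS had no count in any library.

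Most of the 43 repair genes were lower with SIK3 siRNA than with Scr1 siRNA at all 3 TNF times. With 1 SIK3 siRNA, loss of SIK3 and other effects of that siRNA cannot be told apart. In the edgeR quasi-likelihood test with Benjamini-Hochberg adjustment over all genes, 34 were lower and 1 was higher without TNF, when 19.8% of all genes tested were lower and 18.9% higher. With TNF for 30 min 32 were lower and 0 higher, when 19.6% of all genes were lower and 18.2% higher. With TNF for 4 h 30 were lower and 1 higher, when 19.9% of all genes were lower and 19.6% higher. The median log2 fold of the 43 was -1.33, -1.23 and -0.90 in the 3 comparisons, in order of TNF time, and that of all genes was 0.01, -0.01 and 0.03. In bulk RNA, fewer cells of a type and less RNA per cell cannot be told apart.

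**Figure D1:**
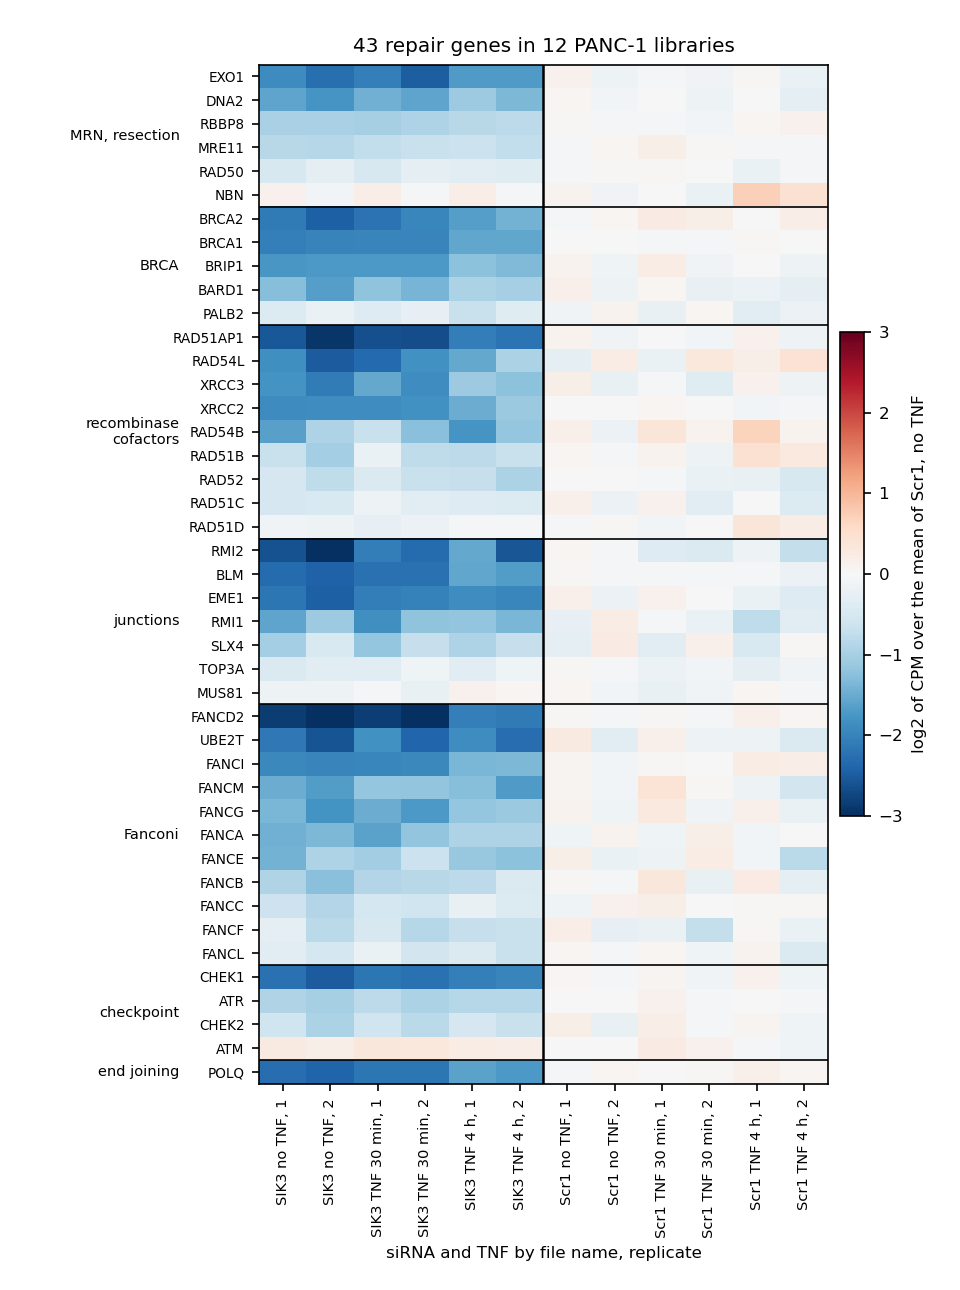
Heat map of the 43 repair genes (rows, by role) in the 12 libraries (columns, SIK3 siRNA left of Scr1 siRNA), coloured by log2 of CPM over the mean of the 2 Scr1 siRNA libraries without TNF. Blue fills most of the 6 SIK3 siRNA columns, and 31 genes were lower in all 6 than in any of the 6 Scr1 siRNA columns.

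Across the 3 times, 31 genes had all 6 SIK3 siRNA libraries below all 6 Scr1 siRNA libraries, as did 17.6% of all genes tested. The other 12 overlapped: NBN, PALB2, RAD51C, RAD51D, RAD52, TOP3A, MUS81, SLX4, FANCE, FANCF, FANCL and ATM. The 43 genes together summed to 1493 to 1693 CPM in SIK3 siRNA libraries and to 2558 to 2751 CPM in Scr1 siRNA libraries, and these sums were apart. The median gene of the 43 stood at 10.5 to 15.9 CPM with SIK3 siRNA and at 33.6 to 37.2 CPM with Scr1 siRNA. Per kilobase of exon, averaged over all 12 libraries, NBN (36.2 CPM per kb), RBBP8 (33.4) and RAD50 (25.4) led the 43, and RAD54B (0.728), RAD51B (0.607) and FANCC came last.

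The division programme was followed in 92 genes used for cell cycle scoring, 38 of S phase and 54 of G2 and mitosis, none of them among the 43. Of these, 89 were lower without TNF, 85 with TNF for 30 min and 82 with TNF for 4 h, with median log2 folds of -1.95, -1.74 and -1.39. TOP2A, a DNA topoisomerase of dividing cells, fell by 3.82 on the log2 scale without TNF (SE 0.102, edgeR adjusted p = 9.78e-08), and DTL, a ubiquitin ligase subunit of S phase, by 2.79 (SE 0.113, edgeR adjusted p = 4.71e-07). A repair gene was said to fall with these genes where it was lower in all 3 comparisons, partly where it was lower in 1 or 2, and not to fall where it was lower in none. On that count 26 of the 43 fell (60.5%), as did 14.2% of all genes tested, 11 fell partly, and 6 did not fall, as was so for 73.8% of all genes. These groups come from the fit that did not pair the replicates, and not falling means a missed threshold at each single time. Averaged over the 3 times in that fit, 40 of the 43 were lower and 1 higher. Of the 16695 genes tested, 4839 were lower and 5039 higher in that average. PALB2, RAD51C, FANCL and FANCF, of the 6, were lower in it, MUS81 was not called and ATM was higher. By size, 22 of the 43 log2 folds without TNF lay between the quartiles of the division genes (-2.43 and -1.03), 3 were more negative (FANCD2, RMI2 and RAD51AP1) and 18 less negative. The median fold of the repair genes was thus nearer to 0 than that of the division genes in each of the 3 comparisons.

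The replicate numbers paired the libraries, so a fit with the replicate as a block was also made. With that block 39 of the 43 were lower without TNF, 36 with TNF for 30 min and 38 with TNF for 4 h, when 29.1, 30 and 29.1% of all genes were lower. It placed 35 genes among those that fell in all 3 comparisons, as it did 21.8% of all genes, and left MUS81 and ATM as those lower in none, as it did 61.9% of all genes.

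**Figure D2:**
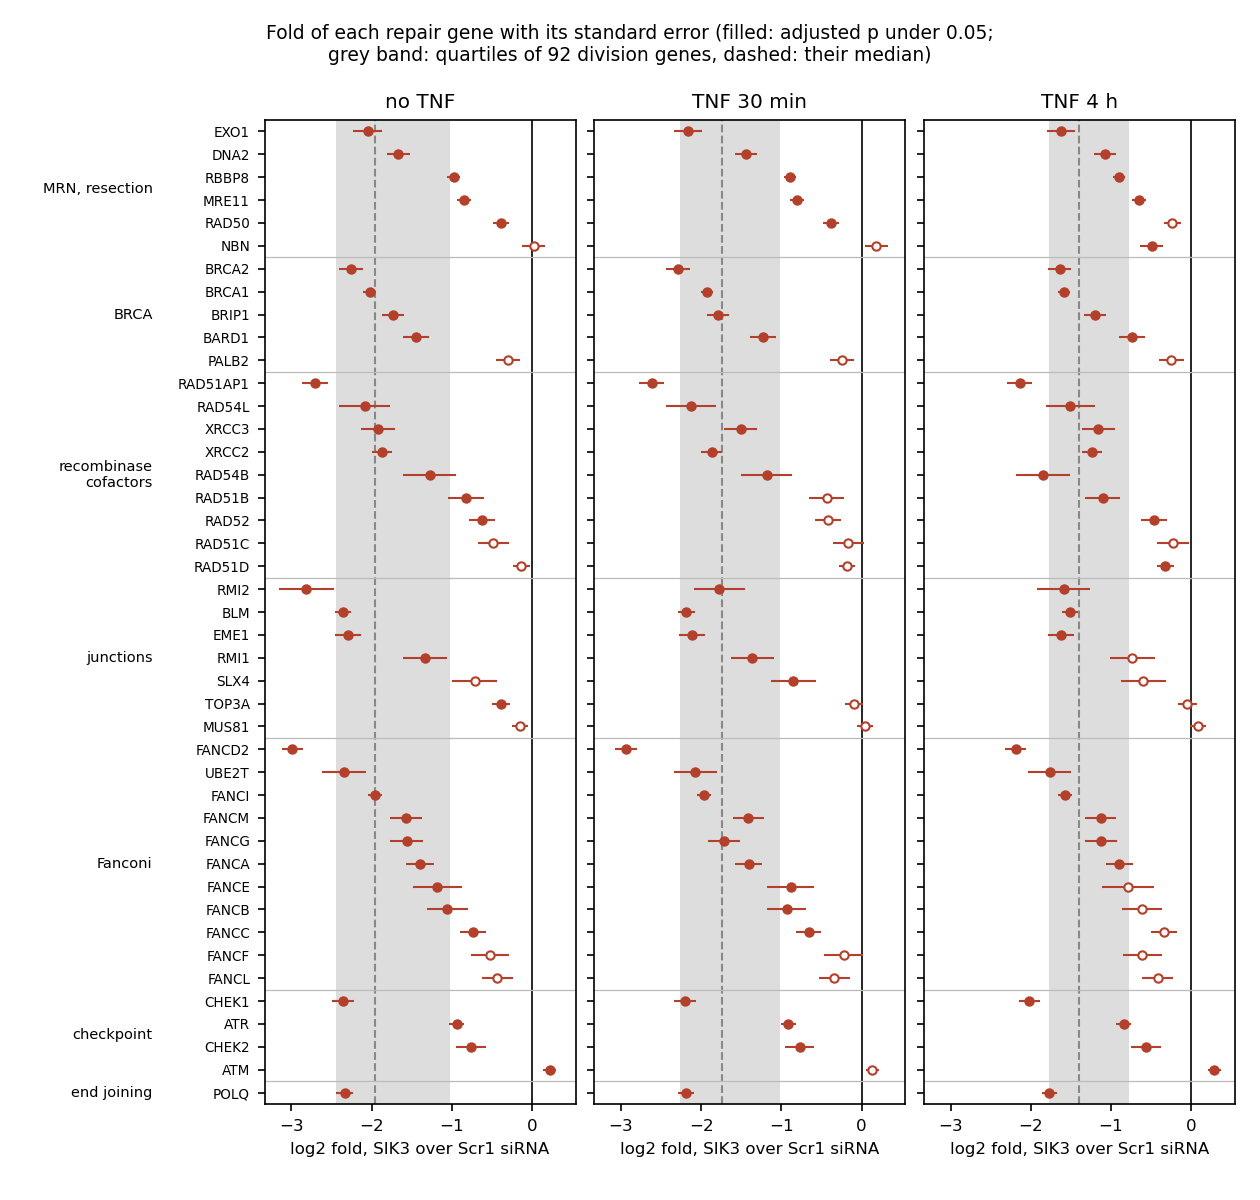
Log2 fold of SIK3 over Scr1 siRNA with its standard error for each of the 43 repair genes, by role, without TNF (left), with TNF for 30 min (middle) and for 4 h (right). Filled points passed an adjusted p of 0.05 in the fit without a block, the grey band spans the quartiles of the 92 division genes and the dashed line is their median; ATM is the one gene with filled points right of 0.

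Among the resection genes EXO1 and DNA2 fell most, RBBP8 and MRE11 fell by less, and RAD50 and NBN moved least. EXO1, a nuclease that digests a strand from the break, stood at 13.8 and 10.7 CPM with SIK3 siRNA and at 55.8 and 45.8 CPM with Scr1 siRNA without TNF, a log2 fold of -2.05 (SE 0.179, edgeR adjusted p = 2.11e-05). DNA2, a helicase and nuclease of long-range resection, stood at 17.0 and 15.03 CPM with SIK3 siRNA against 53.3 and 48.4 CPM with Scr1 siRNA (log2 fold -1.67, SE 0.141). RBBP8, which encodes CtIP, the activator that starts resection, stood at 112 and 113 CPM with SIK3 siRNA and at 225 and 217 CPM with Scr1 siRNA (log2 fold -0.98, SE 0.0766). For all 3, as for MRE11 and RAD50, the libraries of the 2 siRNAs were apart. MRE11, the nuclease of the MRN complex, fell by 0.85, 0.80 and 0.65 on the log2 scale in order of TNF time. RAD50, its ATPase, fell by 0.39 without TNF and by 0.38 with TNF for 30 min, and with TNF for 4 h its log2 fold of -0.23 was not called (edgeR adjusted p = 0.0983, or 0.00272 with the replicate block). The call without TNF ended without replicate 1 of SIK3 siRNA (edgeR adjusted p = 0.0901) or replicate 2 of Scr1 siRNA (0.0625), and that at 30 min without replicate 1 of either siRNA (0.101 and 0.0659).

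NBN, the MRN subunit that recruits ATM, followed another course. With SIK3 siRNA it held 223 and 191 CPM without TNF, 233 and 199 CPM with TNF for 30 min and 234 and 200.1 CPM with TNF for 4 h, and with Scr1 siRNA it held 217 and 189.6 CPM, 203 and 177 CPM, and 332 and 278 CPM at the same times. The 2 Scr1 siRNA libraries with TNF for 4 h were thus the highest of the 12, and the other 10 overlapped. Between siRNAs the log2 fold was 0.02 without TNF (SE 0.142, edgeR adjusted p = 0.915), 0.19 with TNF for 30 min and -0.49 with TNF for 4 h (SE 0.143, edgeR adjusted p = 0.0212). The last call ended without replicate 2 of SIK3 siRNA (log2 fold -0.39, edgeR adjusted p = 0.143) or replicate 1 of Scr1 siRNA (-0.38, 0.116), and with the replicate block the fold at 30 min was called higher (edgeR adjusted p = 0.00224). NBN overlaps DECR1 on the opposite strand (46719 counts for NBN and 15712 for DECR1 over all libraries), and the strand setting of the counting is not stated. Reads ambiguous between genes made up 1.76 to 4.78% of reads in a library and entered no gene count. Reads from bases that NBN and DECR1 share may thus be missing from both or not told apart.

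In the BRCA group 4 of 5 genes fell in all 3 comparisons. BRCA1 (ENSG00000012048, chromosome 17, 43044295 to 43170245, minus strand), a ubiquitin ligase that favours resection, held 24.8 and 25.7 CPM without TNF, 25.96 and 26.1 CPM with TNF for 30 min and 35.0 and 35.0 CPM with TNF for 4 h under SIK3 siRNA. Under Scr1 siRNA it held 102 and 104 CPM, 98.5 and 99.7 CPM, and 106 and 104 CPM. The 6 SIK3 siRNA libraries were well below the 6 of Scr1 siRNA, and the log2 folds were -2.03 (SE 0.0797, edgeR adjusted p = 4.32e-07), -1.93 and -1.59. BRCA2, which loads the recombinase on single-stranded DNA, stood at 9.24 and 7.35 CPM with SIK3 siRNA and at 38.5 and 41.4 CPM with Scr1 siRNA without TNF (log2 fold -2.26, SE 0.151). BRIP1, a helicase that binds BRCA1, stood at 11.7 and 11.8 CPM with SIK3 siRNA against 42.3 and 35.8 CPM with Scr1 siRNA (log2 fold -1.74, SE 0.139), and BARD1, the partner of BRCA1 in the ligase, fell by 1.45. PALB2, the bridge between BRCA1 and BRCA2, held 32.2 and 36.9 CPM with SIK3 siRNA and 39.3 and 45.7 CPM with Scr1 siRNA without TNF. Its log2 folds of -0.30, -0.25 and -0.25 missed the threshold (edgeR adjusted p = 0.148, 0.232 and 0.233), and with the replicate block all 3 passed (edgeR adjusted p = 0.00126, 0.00598 and 0.00804). The fall of PALB2 was in any case small beside those of its partners, none of which lost less than 0.74 on the log2 scale in any comparison.

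Of the 9 recombinase paralogues and partners, 5 fell in all 3 comparisons, 3 partly and 1 in none. RAD51AP1 (ENSG00000111247, chromosome 12, 4538798 to 4560048, plus strand), which helps the recombinase to invade the sister duplex, held 6.396 and 4.90 CPM without TNF, 6.01 and 5.88 CPM with TNF for 30 min and 8.83 and 8.05 CPM with TNF for 4 h under SIK3 siRNA. Under Scr1 siRNA it held 39.9 and 34.7 CPM, 37.7 and 35.4 CPM, and 40.6 and 33.6 CPM. No SIK3 siRNA library came near the lowest Scr1 siRNA library, and the log2 fold without TNF was -2.71 (SE 0.161, edgeR adjusted p = 2.24e-06). RAD54L, a motor protein that remodels the recombinase filament, stood at 3.55 and 2.24 CPM with SIK3 siRNA and at 10.5 and 14.8 CPM with Scr1 siRNA (log2 fold -2.09, SE 0.318). XRCC3, a paralogue of the recombinase, stood at 3.85 and 3.13 CPM with SIK3 siRNA against 15.1 and 11.5 CPM with Scr1 siRNA (log2 fold -1.92, SE 0.215). XRCC2 fell by 1.87 and RAD54B by 1.28 without TNF, the RAD54B call ending without replicate 1 of either siRNA (edgeR adjusted p = 0.105 and 0.0739). The RAD54B call at 30 min ended without replicate 2 of SIK3 siRNA (edgeR adjusted p = 0.0951) or replicate 1 of Scr1 siRNA (0.0760).

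The paralogues did not move together. RAD51C, which joins both paralogue complexes, held 9.95 and 10.3 CPM with SIK3 siRNA and 15.7 and 12.4 CPM with Scr1 siRNA without TNF, and its log2 folds of -0.48, -0.16 and -0.23 were not called (edgeR adjusted p = 0.0799, 0.551 and 0.395). With the replicate block the first of these was called (edgeR adjusted p = 0.00215). RAD51D had log2 folds of -0.13, -0.18 and -0.32 and was called with TNF for 4 h only, a call that ended when any 1 of its 4 libraries was left out (edgeR adjusted p = 0.0526 to 0.143). RAD51B fell by 0.83 without TNF and by 1.10 with TNF for 4 h, and RAD52, a mediator of annealing in human cells, by 0.62 and 0.46. The RAD51B call without TNF ended without replicate 2 of SIK3 siRNA (edgeR adjusted p = 0.102) or replicate 1 of Scr1 siRNA (0.0663). The RAD52 call without TNF ended without replicate 2 of SIK3 siRNA (edgeR adjusted p = 0.102), and its call at 4 h ended when any 1 library was left out (0.0571 to 0.260). Thus XRCC2 and XRCC3 lay between the quartiles of the division genes without TNF, while RAD51B, RAD51C and RAD51D lay above their upper quartile of -1.03. With TNF for 4 h RAD51B (-1.10) lay between the division quartiles (-1.76 and -0.78), as did XRCC2 and XRCC3, and RAD51C and RAD51D lay above.

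Among genes that separate joined molecules, BLM and RMI2 fell strongly and TOP3A, of the same complex, little. BLM (ENSG00000197299, chromosome 15, 90717327 to 90816165, plus strand), the helicase of that complex, held 9.49 and 8.77 CPM without TNF, 9.98 and 10.0 CPM with TNF for 30 min and 15.9 and 14.7 CPM with TNF for 4 h under SIK3 siRNA. Under Scr1 siRNA it held 47.7 and 45.9 CPM, 45.9 and 44.9 CPM, and 45.6 and 41.7 CPM. The groups were apart at every time, and the log2 folds were -2.36 (SE 0.104, edgeR adjusted p = 7.13e-07), -2.18 and -1.51. RMI2, a small stabilising subunit, stood at 0.920 and 0.612 CPM with SIK3 siRNA and at 5.82 and 5.37 CPM with Scr1 siRNA (log2 fold -2.82, SE 0.342), with 9 to 110 counts per library. RMI1 fell by 1.33 without TNF and by 1.36 with TNF for 30 min. TOP3A, the topoisomerase, stood at 24.8 and 26.7 CPM with SIK3 siRNA against 34.2 and 33.0 CPM with Scr1 siRNA without TNF (log2 fold -0.38, SE 0.117, edgeR adjusted p = 0.0265), and at the later times its log2 folds were -0.09 and -0.05. The TOP3A call ended when any 1 of its 4 libraries was left out (edgeR adjusted p = 0.0621 to 0.134).

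The nuclease pair MUS81-EME1 split. EME1, the regulatory subunit, stood at 4.26 and 3.54 CPM with SIK3 siRNA and at 21.4 and 17.0 CPM with Scr1 siRNA without TNF (log2 fold -2.29, SE 0.164, edgeR adjusted p = 6.57e-06). MUS81 (ENSG00000172732, chromosome 11, 65857126 to 65867653, plus strand), the catalytic subunit, held 66.4 and 66.1 CPM, 72.0 and 62.8 CPM, and 80.0 and 76.4 CPM in order of TNF time with SIK3 siRNA, and 77.2 and 69.8 CPM, 63.2 and 67.9 CPM, and 76.9 and 70.5 CPM with Scr1 siRNA. Its groups overlapped, and its log2 folds of -0.15, 0.04 and 0.09 were not called with or without the replicate block (edgeR adjusted p = 0.279, 0.786 and 0.548 without it, SE 0.101 each). MUS81 overlaps CFL1 on the opposite strand, which had 112947 counts over all libraries against 14875 for MUS81. SLX4, the scaffold of these nucleases, fell by 0.85 with TNF for 30 min and had log2 folds of -0.71 and -0.60 without TNF and with TNF for 4 h (edgeR adjusted p = 0.0723 and 0.124, or 1.14e-07 and 2.99e-06 with the replicate block). That call at 30 min ended without replicate 1 of SIK3 siRNA (edgeR adjusted p = 0.200) or replicate 2 of Scr1 siRNA (0.219), and replicate 2 was the higher of each pair.

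In the Fanconi group both ubiquitin substrates and the conjugating enzyme UBE2T had more negative folds than the core subunits, and the ligase subunit FANCL was not called. FANCD2 (ENSG00000144554, chromosome 3, 10026414 to 10101930, plus strand), which receives the ubiquitin, held 10.8 and 8.71 CPM without TNF, 10.9 and 9.02 CPM with TNF for 30 min and 18.8 and 18.0 CPM with TNF for 4 h under SIK3 siRNA. Under Scr1 siRNA it held 79.6 and 75.8 CPM, 79.2 and 74.2 CPM, and 86.7 and 81.0 CPM. The highest SIK3 siRNA library was far below the lowest of Scr1 siRNA, and the log2 folds were -2.99 (SE 0.135, edgeR adjusted p = 7.17e-07), -2.94 and -2.19, the first being the most negative of the 43. UBE2T, the conjugating enzyme that works with the ligase, stood at 13.4 and 9.79 CPM with SIK3 siRNA and at 71.1 and 47.7 CPM with Scr1 siRNA without TNF (log2 fold -2.35, SE 0.273). FANCI, the partner of FANCD2, stood at 35.1 and 33.9 CPM with SIK3 siRNA against 141 and 127 CPM with Scr1 siRNA (log2 fold -1.96, SE 0.0863).

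Of the core subunits, FANCA, FANCG and FANCM fell in all 3 comparisons, by 1.40, 1.56 and 1.57 without TNF, and FANCB, FANCC and FANCE fell in 2. With 1 or another library left out both FANCB calls ended (edgeR adjusted p = 0.0613 without TNF, without replicate 2 of SIK3 siRNA, and 0.0529 to 0.108 at 30 min, without either SIK3 siRNA library or replicate 1 of Scr1 siRNA). Both FANCE calls ended as well (edgeR adjusted p = 0.0818 and 0.102 without TNF, without replicate 1 of either siRNA, and 0.0570 to 0.195 at 30 min, without either SIK3 siRNA library or replicate 2 of Scr1 siRNA). FANCL, the ubiquitin ligase subunit itself, held 28.01 and 24.4 CPM with SIK3 siRNA and 36.8 and 33.8 CPM with Scr1 siRNA without TNF, with log2 folds of -0.43, -0.34 and -0.42 (edgeR adjusted p = 0.104, 0.194 and 0.116). FANCF, an adaptor, held 15.05 and 10.5 CPM with SIK3 siRNA and 21.2 and 15.6 CPM with Scr1 siRNA, with log2 folds of -0.52, -0.22 and -0.61 (edgeR adjusted p = 0.118, 0.518 and 0.0771). Both were lower in none of the 3 comparisons, and in both the 6 SIK3 and the 6 Scr1 siRNA libraries overlapped. With the replicate block FANCL was called lower in all 3 (edgeR adjusted p = 0.000281, 0.002 and 0.000748) and FANCF without TNF and with TNF for 4 h (0.000637 and 0.000387). The substrate-side genes thus lay inside or beyond the quartiles of the division genes, and the ligase subunit lay outside them on the side of 0.

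Of the checkpoint kinases, 3 fell and 1 rose. CHEK1 (ENSG00000149554, chromosome 11, 125625136 to 125676255, plus strand), the S phase effector kinase, held 31.0 and 25.8 CPM without TNF, 32.2 and 30.8 CPM with TNF for 30 min and 35.2 and 37.0 CPM with TNF for 4 h under SIK3 siRNA. Under Scr1 siRNA it held 153 and 139 CPM, 154 and 136 CPM, and 161 and 132 CPM. The groups were far apart, and the log2 folds were -2.36 (SE 0.133, edgeR adjusted p = 1.73e-06), -2.20 and -2.02. ATR, the kinase that senses single-stranded DNA and activates CHEK1, stood at 78.7 and 73.7 CPM with SIK3 siRNA and at 148 and 144 CPM with Scr1 siRNA (log2 fold -0.94, SE 0.0956). CHEK2, the effector of ATM, stood at 14.1 and 11.0 CPM with SIK3 siRNA against 24.3 and 18.4 CPM with Scr1 siRNA (log2 fold -0.76, SE 0.185), and its calls ended in each comparison without 1 or another library (edgeR adjusted p = 0.0536 to 0.174).

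ATM (ENSG00000149311, chromosome 11, 108222484 to 108369102, plus strand), the kinase that answers to double-strand breaks, held 378 and 357 CPM without TNF, 399 and 389.6 CPM with TNF for 30 min and 366 and 360.2 CPM with TNF for 4 h under SIK3 siRNA. Under Scr1 siRNA it held 314 and 316 CPM, 375 and 342 CPM, and 306 and 289 CPM. At each time the SIK3 siRNA pair was above the Scr1 siRNA pair, and over all times the groups overlapped. It rose by 0.22 on the log2 scale without TNF (SE 0.0790, edgeR adjusted p = 0.0499) and by 0.29 with TNF for 4 h (SE 0.0791, edgeR adjusted p = 0.0163), and was the one gene of the 43 called higher, when 26.1% of all genes were higher in at least 1 comparison. At 30 min its log2 fold was 0.14 (edgeR adjusted p = 0.208, or 0.0210 with the replicate block). Both calls ended when any 1 library was left out, with log2 folds of 0.16 to 0.31 and edgeR adjusted p of 0.0506 to 0.257.

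POLQ, the polymerase of theta-mediated end joining, a repair route that joins resected ends by short homologies, stood at 12.4 and 11.4 CPM with SIK3 siRNA and at 58.1 and 62.6 CPM with Scr1 siRNA without TNF. Its 6 SIK3 siRNA libraries (11.4 to 19.7 CPM) were all below the 6 of Scr1 siRNA (58.1 to 66.7 CPM), and its log2 fold without TNF was -2.34 (edgeR adjusted p = 6.60e-07).

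**Figure D3:**
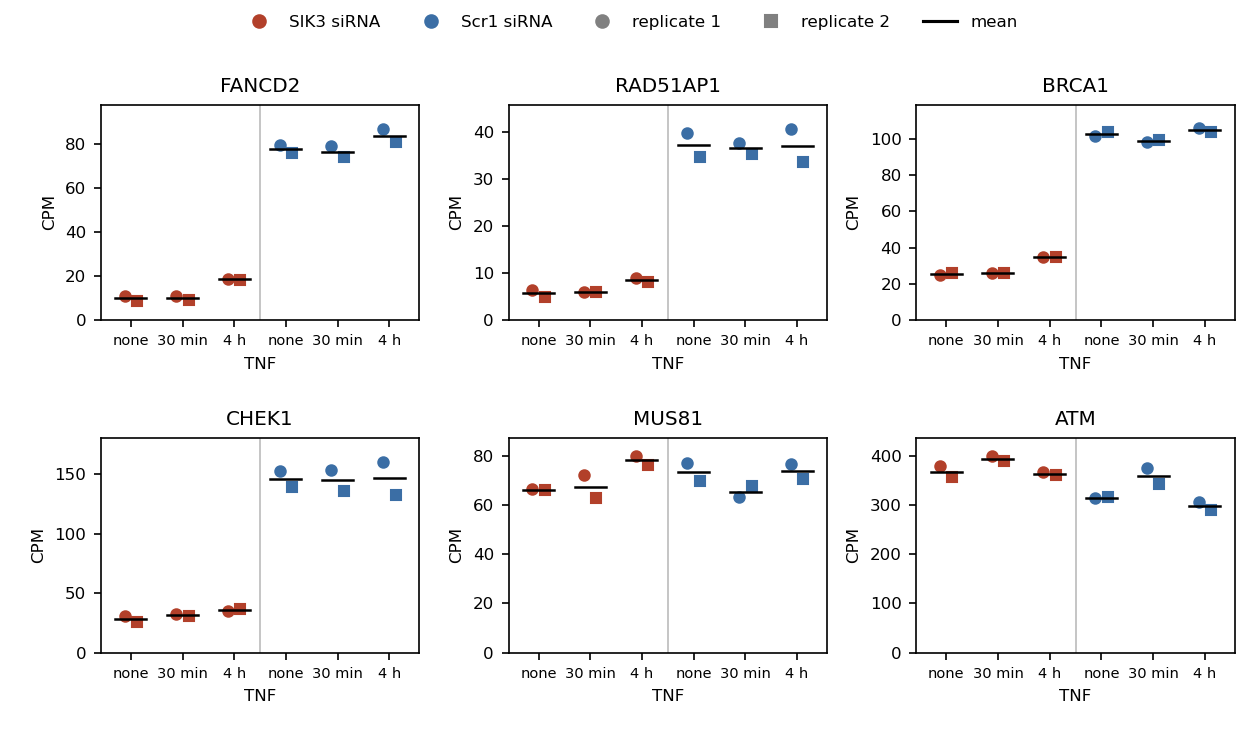
CPM of 6 repair genes in each library, with SIK3 siRNA (red) left of Scr1 siRNA (blue) and TNF none, 30 min and 4 h from left to right within each; circles are replicate 1, squares replicate 2 and bars the mean. FANCD2, RAD51AP1, BRCA1 and CHEK1 were lower in all 6 SIK3 siRNA libraries, MUS81 overlapped, and ATM was higher with SIK3 siRNA at each time.

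Promoter sequence was read for the genes that moved together, from RefSeq windows of 250 bases before to 50 after the start on GRCh38.p14, which 38 of the 43 matched. Searched on both strands were 4 words of the E2F type, namely TTGGCGC along with TTGCCGC along with TTCGCGC along with TTCCCGC, and, for the cell cycle homology region (CHR), the words TTTGAA along with TTCGAA, which do not overlap the E2F words. An E2F-type word was in 20 of the 38 windows (52.6%), against 13.1% of 27305 windows of all genes, and a CHR word in 5 (13.2%), against 16.6%. Of the division genes 73 had a window, and 33 of these (45.2%) held an E2F-type word and 35 (47.9%) a CHR word. Before the start alone the E2F-type words were in 11 of the 38 (28.9%), in 22 of the 73 (30.1%) and in 11.0% of all windows. By group in the fit without a block, 13 of the 22 windows of genes that fell in all 3 comparisons held an E2F-type word, as did 5 of 10 of those that fell partly and 2 of 6 of those that did not fall. The median log2 fold without TNF was -1.65 over the 20 genes with the word (-2.99 to -0.13) and -0.89 over the 18 without it (-2.36 to 0.22). The ranges overlapped, no test was made, and a match describes letters, not a bound factor.

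The 150 bases before the start are shown for 5 genes, chosen from the 8 whose stretch holds no annotated exon, to set windows with and without the words beside different responses. RAD54L (chr1:46247538-46247687, plus strand) and FANCC (chr9:95317710-95317859, minus strand) hold an E2F-type word, in capitals; CHEK1 (chr11:125626079-125626228, plus strand), BRIP1 (chr17:61863529-61863678, minus strand) and RAD51C (chr17:58692423-58692572, plus strand) hold none in this stretch.
RAD54L: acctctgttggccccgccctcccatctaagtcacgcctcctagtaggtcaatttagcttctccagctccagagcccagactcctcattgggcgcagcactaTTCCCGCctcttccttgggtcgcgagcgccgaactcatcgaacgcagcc
FANCC: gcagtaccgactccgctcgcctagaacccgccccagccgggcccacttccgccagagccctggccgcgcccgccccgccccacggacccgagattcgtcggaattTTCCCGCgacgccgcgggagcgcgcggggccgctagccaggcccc
CHEK1: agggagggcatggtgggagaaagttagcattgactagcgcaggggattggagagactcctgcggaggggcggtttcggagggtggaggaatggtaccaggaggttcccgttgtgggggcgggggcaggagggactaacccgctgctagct
BRIP1: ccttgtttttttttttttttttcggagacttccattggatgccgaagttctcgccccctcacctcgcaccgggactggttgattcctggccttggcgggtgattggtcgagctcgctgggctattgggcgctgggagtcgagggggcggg
RAD51C: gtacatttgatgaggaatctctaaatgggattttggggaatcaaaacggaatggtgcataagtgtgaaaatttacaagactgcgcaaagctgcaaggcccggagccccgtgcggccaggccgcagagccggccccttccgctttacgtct
Of these, RAD54L fell by 2.09 on the log2 scale without TNF and FANCC by 0.73. CHEK1 fell by 2.36 with no word in the whole window, BRIP1 fell by 1.74 with a word 3 bases past the start, and RAD51C had a log2 fold of -0.48 that was not called. Only 1 window per gene was searched. The RefSeq starts used for CHEK1 and FANCC lie inside their GENCODE spans, and the outer starts were not searched. In 30 of the 38 windows the bases after the start lay in a GENCODE transcript of the gene.

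Genes that start close to a repair gene on the other strand gave a comparison within the same stretch of the genome, chosen after values were seen. By the outermost starts of GENCODE 29, 18 of the 43 had a tested gene on the other strand starting within 1000 bases. The genes of a pair were not required to be free of overlap, and ANKRD49, NPAT and HSCB overlap MRE11, ATM and CHEK2. Of these 18 neighbours 6 were lower and 3 higher without TNF, 5 lower and 2 higher with TNF for 30 min, and 7 lower and 3 higher with TNF for 4 h. Of all genes tested 19.8, 19.6 and 19.9% were lower and 18.9, 18.2 and 19.6% higher in the 3 comparisons. In the 10 pairs whose repair gene fell in all 3 comparisons, the neighbour fell in all 3 in 2 and in none in 7. Lower in all 3 were 14.2% of all genes tested, and lower in none 73.8%. The 2 were ANKRD49, which overlaps MRE11, and NBR1, which starts beside the outermost start of BRCA1. EME1 and MRPL27, a mitochondrial ribosomal protein gene, start 6 bases apart, and without TNF EME1 had a log2 fold of -2.29 and MRPL27 of 0.33 (edgeR adjusted p = 0.229). FANCM had a log2 fold of -1.57 while FKBP3 beside it was higher by 0.47 (edgeR adjusted p = 0.00367).

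The pair of ATM and NPAT went the other way. They start 158 bases apart and overlap, and NPAT, a coactivator of histone genes at the start of S phase, had log2 folds of -0.70, -0.62 and -0.67 in order of TNF time (edgeR adjusted p = 0.000259, 0.000508 and 0.000358), beside 0.22, 0.14 and 0.29 for ATM. ATM had 74467 counts over all libraries and NPAT 10440. BRCA1 in these annotations starts furthest out beside NBR1. NBR2, annotated as a noncoding RNA of a bidirectional promoter, overlaps BRCA1 on the opposite strand and starts 44635 bases from that outermost start. NBR2 had a log2 fold of -0.02 without TNF (edgeR adjusted p = 0.982). In all, 18 of the 43 overlap another tested gene, 15 of them on the opposite strand, so counts of MRE11 (with ANKRD49), RAD54L (with LRRC41), XRCC3 (with KLC1), RMI2 (with SOCS1), EME1 (with LRRC59), FANCL (with VRK2), FANCI (with POLG) and CHEK1 (with STT3A, same strand) are uncertain as far as shared bases go.

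**Figure D4:**
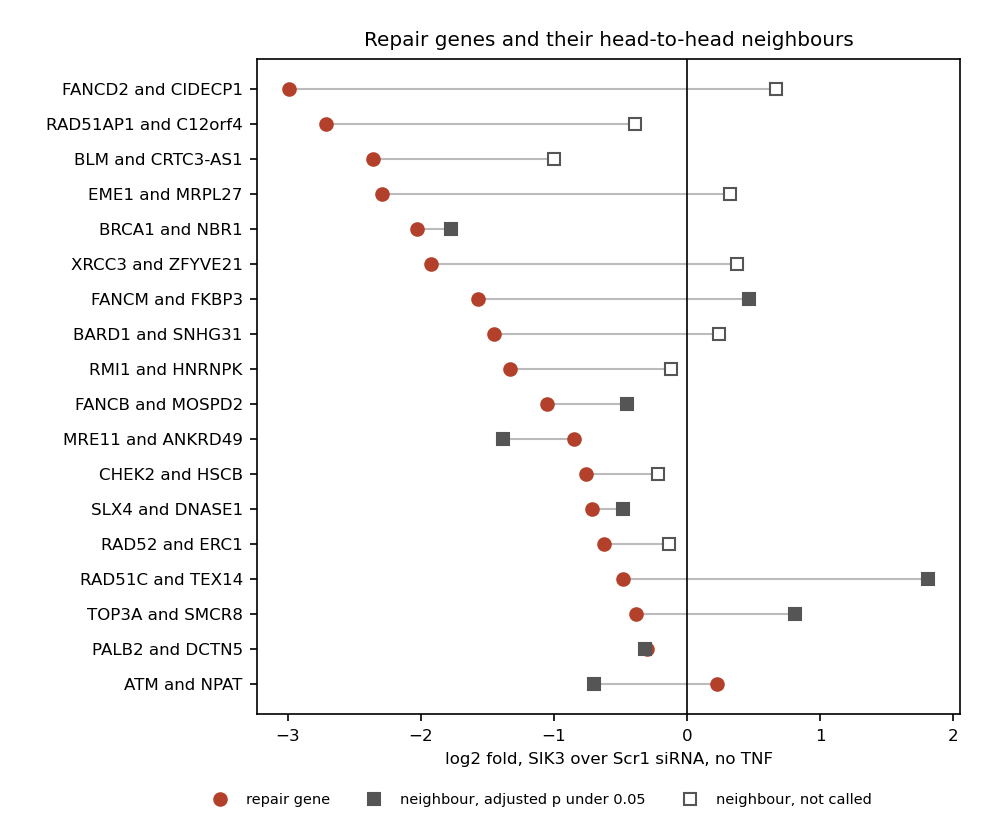
Log2 fold of SIK3 over Scr1 siRNA without TNF for 18 repair genes (red circles) and for the gene that starts within 1000 bases on the other strand (squares, filled where adjusted p was under 0.05). Of the neighbours, 6 were lower, among them ANKRD49, NBR1 and NPAT, and 3 were higher, and ATM lies right of 0 while NPAT lies left of it.

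Other repair genes and the E2F group were counted in the same 3 comparisons, in which 19.8, 19.6 and 19.9% of all genes were lower and 18.9, 18.2 and 19.6% higher. Of 52 tested genes of recombination and crosslink repair outside the 43, 25 were lower and 3 higher without TNF (median log2 fold -0.39), 22 and 4 with TNF for 30 min (-0.30), and 23 and 5 with TNF for 4 h (-0.34). MMS22L, which acts at stalled forks, fell by 2.07 without TNF (edgeR adjusted p = 1.38e-06), RAD17, a checkpoint clamp loader, by 1.24, RFWD3, a ubiquitin ligase of crosslink repair, by 1.21 and MND1, known from meiotic recombination, by 2.02. FAAP20 rose by 0.89, ERCC1, a nuclease subunit, by 0.51 and EME2, the other partner of MUS81, by 0.70. Of 19 tested end joining and 53BP1 pathway genes 7 were lower and 3 higher without TNF (median -0.45), 7 and 3 with TNF for 30 min (-0.39) and 8 and 2 with TNF for 4 h (-0.39). Without TNF RNF168, H2AX, RIF1 and LIG4 were lower and TP53BP1, SHLD2 and SHLD3 higher. Of 27 excision and mismatch repair genes 9 were lower and 3 higher without TNF (median -0.18), 10 and 4 with TNF for 30 min (-0.13) and 10 and 4 with TNF for 4 h (-0.0717). Without TNF the smallest p were those of PARP2, ERCC6 and MUTYH, which were lower, and DDB1, which was higher. Of 17 genes of the E2F, pocket protein and DREAM group 14 were lower and 0 higher without TNF (median -1.32), 14 and 0 with TNF for 30 min (-1.06) and 12 and 0 with TNF for 4 h (-0.76), with RBL1, E2F1, E2F7 and LIN9 lower without TNF.

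Called responses of the 43 to TNF were 0 at 30 min under either siRNA, and at 4 h 7 under SIK3 siRNA and 1 under Scr1 siRNA, or 21 and 8 with the replicate block. With TNF for 30 min 0 were called under SIK3 siRNA (edgeR, 0 at an unadjusted p under 0.05, 0 by DESeq2) when 0.15% of all genes were, and 0 under Scr1 siRNA (edgeR, 1 at an unadjusted p under 0.05, 0 by DESeq2) when 0.294% were. With the replicate block 1 was called under Scr1 siRNA, ATM at a log2 fold of 0.19 (edgeR adjusted p = 0.0461), when 2.78% of all genes were. With TNF for 4 h 7 rose and 0 fell under SIK3 siRNA, when 3.65% of all genes rose, and 1 rose and 0 fell under Scr1 siRNA, when 5.53% rose. Of all genes called in the Scr1 siRNA comparison at 4 h 61.5% were higher, or 49.8% when scaled by library totals, which moved the median of all genes by -0.11 on the log2 scale. The comparisons of one siRNA share its libraries without TNF, and those libraries also enter the comparison of siRNAs without TNF.

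The 7 that rose with SIK3 siRNA were BRCA1, BRCA2, XRCC2, BLM, FANCD2, FANCI and POLQ. FANCD2 rose by 0.91 on the log2 scale (SE 0.132, edgeR adjusted p = 0.00509), and BLM by 0.74 (SE 0.103, edgeR adjusted p = 0.0039). FANCI held 51.6 and 52.7 CPM with TNF for 4 h and 35.1 and 33.9 CPM without TNF (log2 fold 0.60, SE 0.0845), POLQ 19.7 and 18.2 CPM and 12.4 and 11.4 CPM (0.67, SE 0.0992), and BRCA1 rose by 0.47. Each stayed far below its level under Scr1 siRNA, where the log2 folds of the same 7 genes lay between -0.10 and 0.21 and were not called. With the replicate block 20 rose and PALB2 fell under SIK3 siRNA, when 12.5% of all genes rose, and with each library of that comparison left out in turn 0 to 4 were called (0 without replicate 2 of SIK3 siRNA without TNF). With the compared libraries fitted alone 0 rose. The division genes went with them: 29 of 92 rose and 0 fell (median log2 fold 0.45, beside 0.29 over the 43). The 2 libraries of SIK3 siRNA with TNF for 4 h are those with 16.5 and 17.1% of reads in no gene, and the part of that in these changes was not tested.

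The 1 gene that rose under Scr1 siRNA was NBN, at 332 and 278 CPM with TNF for 4 h and 217 and 189.6 CPM without TNF (log2 fold 0.58, SE 0.143, edgeR adjusted p = 0.0321). This call ended when any 1 library was left out, and with the replicate block it held (edgeR adjusted p = 4.11e-09) and 8 genes were called, 3 higher (NBN, FANCI and RAD51D) and 5 lower (UBE2T, PALB2, FANCM, RAD52 and EME1), when 23.5% of all genes were called. Under SIK3 siRNA the log2 fold of NBN was 0.07 (not called).

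Whether the fall under SIK3 siRNA differed between TNF for 4 h and no TNF was tested as an interaction. BLM was called (difference of log2 folds 0.84, SE 0.141, edgeR adjusted p = 0.0222), its fold being -1.51 with TNF for 4 h and -2.36 without, when 1.56% of all genes were called. FANCD2, with a difference of 0.80 (SE 0.180), missed the threshold (edgeR adjusted p = 0.0724). With the replicate block 17 were called, 16 with a positive difference and NBN with a negative one (-0.52, edgeR adjusted p = 1.86e-05), when 12% of all genes were called. With any 1 library left out of the fit without a block 0 were called. The median difference was 0.39 over the 43, 0.53 over the 92 division genes and 0.03 over all genes. For TNF for 30 min 0 of the 43 differed (edgeR, 0 at an unadjusted p under 0.05, 0 by DESeq2), when 0% of all genes did.

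**Figure D5:**
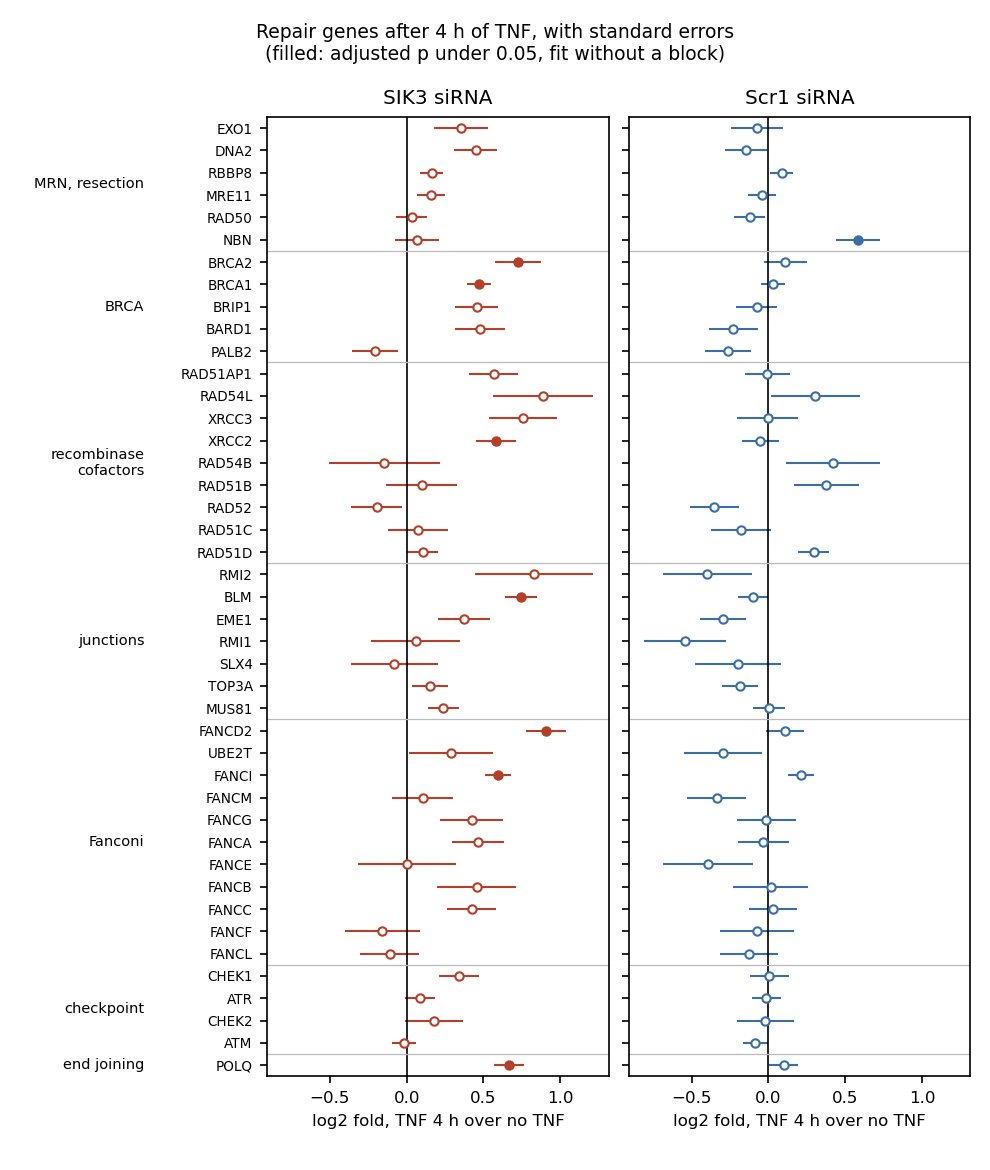
Log2 fold of TNF for 4 h over no TNF with its standard error for the 43 repair genes, with SIK3 siRNA (left) and Scr1 siRNA (right); filled points passed an adjusted p of 0.05 in the fit without a block. The 7 filled points with SIK3 siRNA lie between 0.47 and 0.91, and the 1 filled point with Scr1 siRNA is NBN at 0.58.

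Grouped as the titles name them, the libraries set other pairs against each other. The pair titled SIK3 siRNA against control siRNA without stimulation is by file name Scr1 siRNA with TNF for 30 min against Scr1 siRNA without TNF, and 0 of the 43 were called in it (edgeR, 1 at an unadjusted p under 0.05, 0 by DESeq2), when 0.294% of all genes were. The pair titled TNF for 30 min sets SIK3 siRNA without TNF against Scr1 siRNA at 4 h of TNF. In it 32 were lower and 1 was higher (median log2 fold -1.22), when 21.8% of all genes were lower and 20.7% higher. The pair titled TNF for 4 h sets, in the file names, SIK3 siRNA at 4 h of TNF against the same siRNA at 30 min, and 6 were higher and 0 lower (median log2 fold 0.20), or 17 higher with the replicate block, when 4.94 and 14.8% of all genes were higher. With each library left out in turn 2 to 3 were higher, and with the compared libraries fitted alone 0 were. On the titles, then, the fall of these genes under SIK3 siRNA is seen with TNF for 30 min alone.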

How the data were processed

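RNA-seq was done on 12 PANC-1 libraries. The authors deposited whole-number read counts per gene, 1 table per library, and the submitters' processing notes name STAR 2.05b, edgeR and build GRCh38. The strand setting and the annotation release are not given in the sources used here, and the first count column was used. The 4 summary entries of each table stayed out of library sizes.

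Conditions came from file-name words, and the 6 conditions were fitted together without a block in edgeR 4.0.16 (R 4.3.3): filterByExpr with a minimum count of 10, TMM scaling, quasi-likelihood tests on 6 residual degrees of freedom, and Benjamini-Hochberg adjustment over all 16695 genes tested, with an adjusted p under 0.05 as a call. The SE is the log2 fold over the root of F. Alternatives were a replicate block, DESeq2 1.42.0, 2 other scalings, other filters, the compared libraries alone, a stricter threshold and each library left out. Leaving out both libraries of SIK3 siRNA with TNF for 4 h was added after the data were seen.

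Same-numbered libraries deviated together in all 15 pairs of conditions (correlations of 0.35 to 0.53, median 0.421), so the numbers were read as pairs. Gene positions are GENCODE 29 on GRCh38, promoters RefSeq. Tables and figures used Python 3.11.15 and matplotlib 3.10.9.

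The 43 genes and the other lists were chosen with earlier results of these data known. All 43 are named. Full values went to up to 3 called genes of each role with the largest fold without TNF, to each called higher and to each lower in no comparison. From the other lists, up to 4 genes with the smallest p were named, and the genes that rose were added after their values were seen. NBN and TOP3A were also given values after theirs were seen.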

Additional observations from a re-analysis of the deposited data

Results flagged for a closer look

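The difference of the SIK3 siRNA effect on BLM between TNF for 4 h and no TNF was 0.84 on the log2 scale (edgeR adjusted p = 0.0222), a difference between 2 conditions that the interaction test called. Reads in no gene made up 16.5% and 17.1% of the libraries of SIK3 siRNA with TNF for 4 h, replicates 1 and 2, against 8.35 to 10.5% in the other 10, and this share is outside the gene counts that were compared. Its part in the BLM difference was not tested.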

How the results depend on the processing

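Of 1634 alternative values for single genes in the 3 comparisons of siRNAs, 1498 kept direction and side of the threshold, 95 lost the call, 32 gained it and 9 changed sign, 0 of them called. With 1 library left out, 20 calls in 12 genes were lost. The counts of genes lower under SIK3 siRNA moved by less than 1.5 times under every alternative run, and without both libraries of SIK3 siRNA with TNF for 4 h they were 34 and 30. With the replicate block the members called were 1 for TNF 30 min and 8 for TNF 4 h under Scr1 siRNA, 20 higher for TNF 4 h under SIK3 siRNA, 17 in the 4 h interaction, 1 and 17 in the titled comparisons without stimulation and at 4 h, and 2 in the group that did not fall; beyond these and the calls given above the block changed none but those of RAD51B and RAD52 at 30 min and of RMI1, FANCB and FANCE at 4 h, which became lower. Over all genes it called 9746, 9771 and 9813 between siRNAs, against 6449, 6314 and 6596 without it. For TNF 4 h under Scr1 siRNA the count was 0 with library totals, 0 with the compared libraries alone, 0 at an adjusted p under 0.01 and 0 to 0 with each library left out. Under SIK3 siRNA it was 0 with the compared libraries alone and 0 to 4 with each left out. In the 4 h interaction it was 2 by DESeq2, 2 with no filter, 0 with the compared libraries alone, 0 at 0.01 and 0 to 0 with each left out. In the titled 4 h comparison it was 0 alone, 3 at 0.01 and 2 to 3 with each left out. At 0.01, 13 genes did not fall. The SIK3 difference by titles was -0.35. Leaving out single libraries gave log2 folds of -0.11 to 0.15 for NBN without TNF, at 30 min -0.38 to 0.0415 for RAD51C, -0.0814 to 0.11 for MUS81 and -0.47 to 0.0287 for FANCF, -0.16 to 0.0420 for TOP3A at 4 h, and -0.0604 to 0.0046 for MUS81 over the 3 times. Library totals gave 0.0513 for TOP3A at 4 h and 0.0802 for MUS81 over the 3 times. With that scaling the all-gene median was 0.08, 0.09 and 0.13 in the 3 comparisons. The cause was not tested. Genes at few counts, such as RMI2 with 9 in its lowest library, are limited by depth.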
